A study of Homo sapiens with 12 samples.

Results

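Keratins of stratified squamous epithelium were followed in 12 RNA sequencing libraries from KYSE510 and KYSE150 cells, both long-established cultures of human squamous carcinoma of the esophagus. The genes were taken by name: KRT4, KRT5, KRT6A, KRT6B, KRT13, KRT14, KRT15, KRT16 and KRT17, 9 of the 38516 genes in the table. Each line was grown in RPMI-1640 with serum and had 3 control libraries and 3 libraries after silencing of HCP5, a gene for a long non-coding RNA. Control titles carry the prefix sh as the silenced ones do, and its meaning is not spelled out, nor whether replicates were separate cultures. The p-values then measure the spread between these libraries, which may be technical. Each line is a single established line, so a difference between the lines concerns KYSE150 and KYSE510 only.

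Keratins are the intermediate filament proteins of epithelial cells, and a filament is built from dimers of a type I and a type II chain. In squamous epithelium, dividing basal cells make KRT5 (type II) with KRT14 and KRT15 (type I). Cells leaving the basal layer of the esophagus change to KRT4 (type II) with KRT13 (type I). KRT6A and KRT6B (type II) with KRT16 and KRT17 (type I) are known for their induction in wounded, stressed or fast-growing epithelium, and are common in squamous carcinoma.

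All 9 genes lie on the minus strand of GRCh38 in the keratin clusters of chromosomes 12 and 17. The 4 type II genes are KRT6B (52446651 to 52452126), KRT6A (52487174 to 52493257), KRT5 (52514575 to 52520687) and, farther along chromosome 12, KRT4 (52806549 to 52814551). The 5 type I genes are KRT13 (41500981 to 41505705), KRT15 (41513743 to 41522529), KRT14 (41582279 to 41586921), KRT16 (41609778 to 41615899) and KRT17 (41619437 to 41624842) on chromosome 17. KRT13 shared 476 exon bases with AC019349.5 on the opposite strand, and the other 8 shared none with another gene of the table.

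The family is similar in sequence, which bears on how far reads can be given to a single member. The stretch of 45 coding bases at the end of the central rod, where all keratins carry a conserved helix termination motif, is shown first for 8 of the genes (GENCODE transcripts, 5′ to 3′). Capitals mark bases that differ from KRT5 in the type II genes and from KRT14 in the type I genes.
KRT5 (chr12:52516648-52516692): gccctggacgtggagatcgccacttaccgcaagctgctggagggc
KRT6A (chr12:52488339-52488383): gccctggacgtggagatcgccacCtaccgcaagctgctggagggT
KRT6B (chr12:52447789-52447833): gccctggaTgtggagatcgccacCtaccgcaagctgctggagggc
KRT14 (chr17:41583246-41583290): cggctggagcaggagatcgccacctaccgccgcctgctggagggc
KRT16 (chr17:41610342-41610386): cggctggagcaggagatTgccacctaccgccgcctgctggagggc
KRT17 (chr17:41620670-41620714): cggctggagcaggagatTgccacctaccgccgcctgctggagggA
KRT13 (chr17:41502385-41502429): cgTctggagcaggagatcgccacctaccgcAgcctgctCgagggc
KRT15 (chr17:41515483-41515527): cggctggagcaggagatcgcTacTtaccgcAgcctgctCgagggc

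The capitals number 2 each in KRT6A, KRT6B and KRT17, 1 in KRT16, 3 in KRT13 and 4 in KRT15. Over whole coding sequences, KRT6A and KRT6B were 97.5% identical over aligned bases, KRT14 and KRT16 88.7%, KRT14 and KRT17 85.2%, and KRT16 and KRT17 80.9%. The 60 coding bases of a single exon in which KRT6A and KRT6B differ most are shown next, with their neighbour KRT6C. Capitals mark bases that differ from KRT6A, 9 in KRT6B and 5 in KRT6C.
KRT6A (chr12:52491555-52491614): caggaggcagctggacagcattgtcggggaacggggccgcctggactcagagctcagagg
KRT6B (chr12:52450439-52450498): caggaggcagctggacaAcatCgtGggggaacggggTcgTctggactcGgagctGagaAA
KRT6C (chr12:52472099-52472158): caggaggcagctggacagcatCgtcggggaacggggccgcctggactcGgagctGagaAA

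Of all 100-base windows of the coding sequence, 32.4% in KRT6B and 24.2% in KRT6A occurred unchanged in a transcript of another gene, mainly KRT6C and each other. The share was 8.41% in KRT16 and 7.06% in KRT14, which matched each other and KRT16 pseudogenes, 2.09% in KRT5, 0.42% in KRT17, and 0 in KRT4, KRT13 and KRT15. With windows of 50 bases the shares were 62.6% in KRT6B, 52.8% in KRT6A, 24.6% in KRT14, 23.9% in KRT16 and 17.2% in KRT17, and with 150 bases 16.5%, 12.96%, 0.71%, 0.87% and 0. The read length is not given in the sources used here. How the authors counted reads that fit several genes is not given in the sources used here, so the division of reads between KRT6A and KRT6B is uncertain, and with short reads also that of KRT14, KRT16 and KRT17 with their copies.

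Levels are RPKM, reads per kilobase of exon scaled to the total reads of the library, as deposited. The 12 libraries held 20035025 to 28202422 reads assigned to genes, and in KYSE150 every silenced library (26281327 or more) was deeper than every control (22700935 or fewer). HCP5 itself had 0.745 to 0.786 RPKM in KYSE150 controls and 0.315 to 0.579 in silenced libraries, which did not overlap. In KYSE510 it had 0.914 to 1.85 in controls and 0.505 to 0.951 in silenced libraries, which did. Of 10 markers of squamous epithelium, 9 had a mean of at least 1 RPKM in each group, with SOX2 below that in KYSE150 and PKP1 in KYSE510. Of 9 fibroblast markers, only FAP reached 1 RPKM, in KYSE510, and the 9 together summed to 0.0747 to 2.64 RPKM per library. Of 9 immune and endothelial markers, only CD68 (both lines) and CDH5 (KYSE510) did. In bulk RNA, a change in the number of cells that make a keratin and a change in RNA per cell cannot be told apart.

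**Figure D1:**
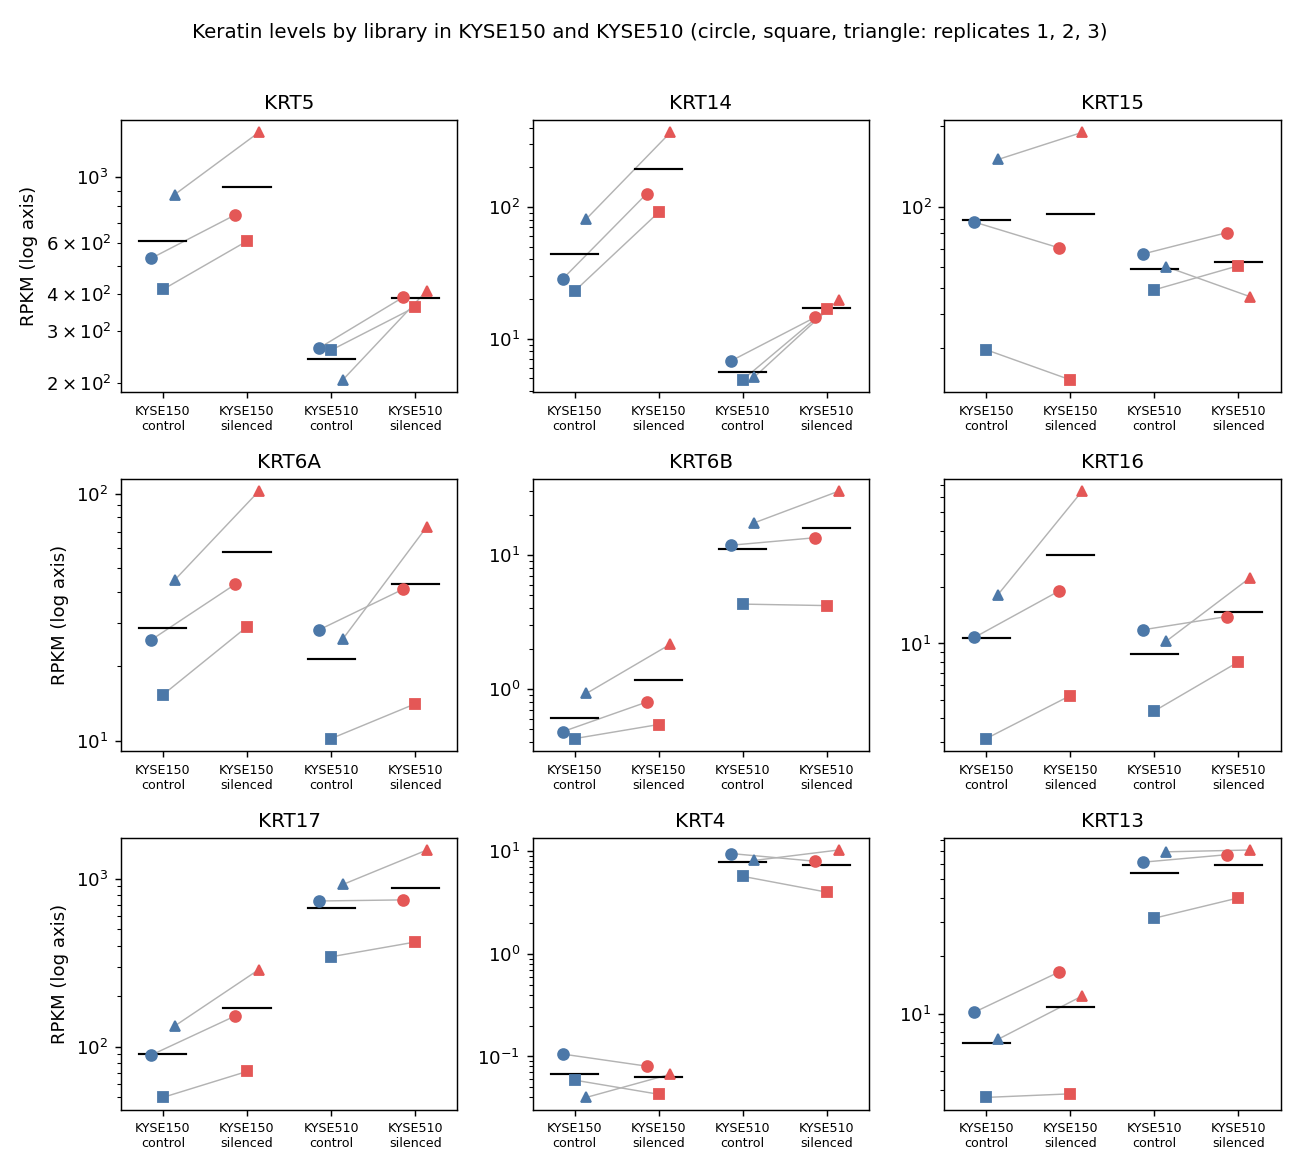
RPKM (log axis) of 9 keratins in each library, by line and treatment. Symbols are replicates 1 to 3, black bars group means, and grey lines join same-numbered control and silenced libraries; KRT14 is higher at the silenced end of all 6 grey lines, for example from 28.5 to 126.6 RPKM in KYSE150 pair 1.

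The lines differed in which keratins they made. KYSE150 controls were led by the basal keratin KRT5, at 607 ± 239 RPKM (SD, n = 3), followed by KRT17 at 90.6 ± 41.45, KRT15 at 89.1 ± 60.3 and KRT14 at 44.2 ± 32.15. KYSE510 controls were led by KRT17, at 667 ± 296 RPKM (SD, n = 3), followed by KRT5 at 242 ± 32.35, KRT15 at 58.6 ± 8.87 and KRT13 at 54.2 ± 20.1. In both lines the leading gene lay above the next in every control library. KRT17, KRT15, KRT14, KRT6A, KRT16 and KRT13, in this order in KYSE150 controls, each overlapped the next, and KRT6B (0.612 ± 0.274) and KRT4 (0.0681 ± 0.0338) lay below all of them. In KYSE510 controls KRT15 and KRT13 overlapped, as did each of KRT6A (21.4 ± 9.75), KRT6B (11.2 ± 6.57), KRT16 (8.82 ± 3.94), KRT4 (7.77 ± 1.93) and KRT14 (5.595 ± 1.03) with the next. RPKM used the summed length of all annotated exons, 1 to 1.71 times the length of the main coding transcript in 8 genes and 2.98 times (7121 against 2394 bases) in KRT15. The place of KRT15 among the other genes depends on that length, while comparisons between libraries do not.

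Between control lines, 6 of the 9 keratins passed an adjusted p of 0.05 (limma on log2(RPKM + 0.5), Benjamini-Hochberg over 17823 genes), against 62% of all genes tested (28.3% higher and 33.7% lower in KYSE510). The share called is thus near the background, and the sizes carry the description. KRT4, KRT6B, KRT13 and KRT17 were higher in KYSE510, and KRT5 and KRT14 were higher in KYSE150. The libraries of the 2 control groups did not overlap for these 6 genes; over all genes, 28.5% were higher and 35.5% lower in KYSE510 without overlap.

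KRT4, the type II chain of the esophageal suprabasal pair, had 9.49, 5.69 and 8.13 RPKM in KYSE510 controls 1, 2 and 3. In KYSE150 it had 0.106, 0.0588 and 0.0399, on 3 to 7 reads per library over both treatments. The log2 fold change was 3.84 (limma: SE 0.27, adjusted p 2.9e-07), which the added 0.5 RPKM understates. Its value on recovered reads was 6.77. Its partner KRT13 had 61.5, 31.4 and 69.65 RPKM in KYSE510 controls and 10.2, 3.66 and 7.35 in KYSE150 controls, a log2 fold change of 2.88 (limma: SE 0.51, adjusted p 0.000459). Both chains of the suprabasal pair were thus at higher levels in every KYSE510 control than in any KYSE150 control.

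The wound-associated keratins did not behave alike between lines. KRT17 had 736, 343 and 923 RPKM in KYSE510 controls and 89.2, 49.9 and 132.8 in KYSE150 controls, a log2 fold change of 2.87 (limma: SE 0.59, adjusted p 0.00134). KRT6B had 11.8, 4.30 and 17.4 RPKM in KYSE510 controls and 0.481, 0.427 and 0.927 in KYSE150 controls. Its log2 fold change was 3.22 (limma: SE 0.64, adjusted p 0.00106), which the added 0.5 RPKM understates. Alternatives gave 2.75 to 4.03. The related KRT6A (25.6, 15.3 and 44.7 RPKM in KYSE150, 28.1, 10.2 and 25.8 in KYSE510) and KRT16 (10.8, 3.11 and 18.2, against 11.8, 4.36 and 10.3) overlapped between lines. Their log2 fold changes were -0.40 (limma: SE 0.65, adjusted p 0.609) and -0.08 (limma: SE 0.82, adjusted p 0.940). KRT6A thus exceeded KRT6B by 35.9 to 53.1 times in KYSE150 controls and by 1.48 to 2.38 times in KYSE510 controls.

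Of the basal keratins, KRT5 had 531, 416 and 875 RPKM in KYSE150 controls and 263, 258 and 205 in KYSE510 controls. In log2 terms the difference was -1.26 for KYSE510 against KYSE150 (limma: SE 0.31, adjusted p 0.00386). KRT14, its type I partner, had 28.5, 23.0 and 81.2 RPKM in KYSE150 controls and 6.78, 4.87 and 5.13 in KYSE510 controls, a log2 fold change of -2.66 (limma: SE 0.51, adjusted p 0.000798). KRT15, the other basal type I chain, had 87.8, 29.4 and 150.1 RPKM in KYSE150 controls and 66.8, 49.2 and 59.95 in KYSE510 controls, which overlapped (log2 fold change -0.33, limma: SE 0.69, adjusted p 0.699). KRT5 exceeded KRT14 in every library of both lines, by 10.8 to 18.6 times in KYSE150 controls and by 38.8 to 53.0 times in KYSE510 controls.

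**Figure D2:**
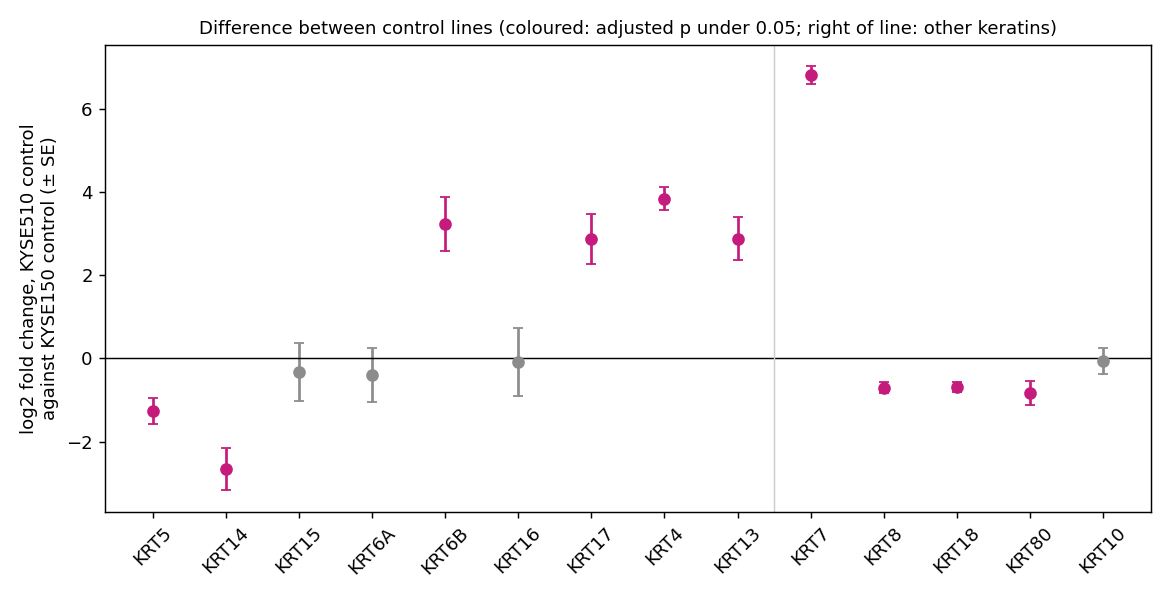
Log2 fold change of KYSE510 control against KYSE150 control with its SE, for the 9 keratins and 5 other keratins with high levels. Coloured points passed an adjusted p of 0.05; KRT4 stands at 3.84 and KRT14 at -2.66, while KRT15, KRT6A and KRT16 are grey.

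The balance of chain types followed the leading gene. The 4 type II keratins together exceeded the 5 type I keratins by 2.36 to 3.96 times in KYSE150 controls, and stood at 0.240 to 0.644 of them in KYSE510 controls. In silenced libraries these ratios were 1.655 to 3.28 and 0.321 to 0.705. The ratio was lower in the silenced library of all 3 same-numbered pairs of KYSE150 and higher in all 3 of KYSE510, a difference of direction that was not tested. Other keratins can pair with these chains: KRT8 and KRT18, the pair of simple epithelium, summed to 1212 to 1518 RPKM in KYSE150 and 664 to 924 in KYSE510. KRT7, a type II chain outside the list, had 479.5 to 761.4 RPKM in KYSE510 controls and 3.93 to 6.29 in KYSE150 controls. The ratios thus describe the listed genes and not the balance of all type I and type II keratins.

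**Figure D3:**
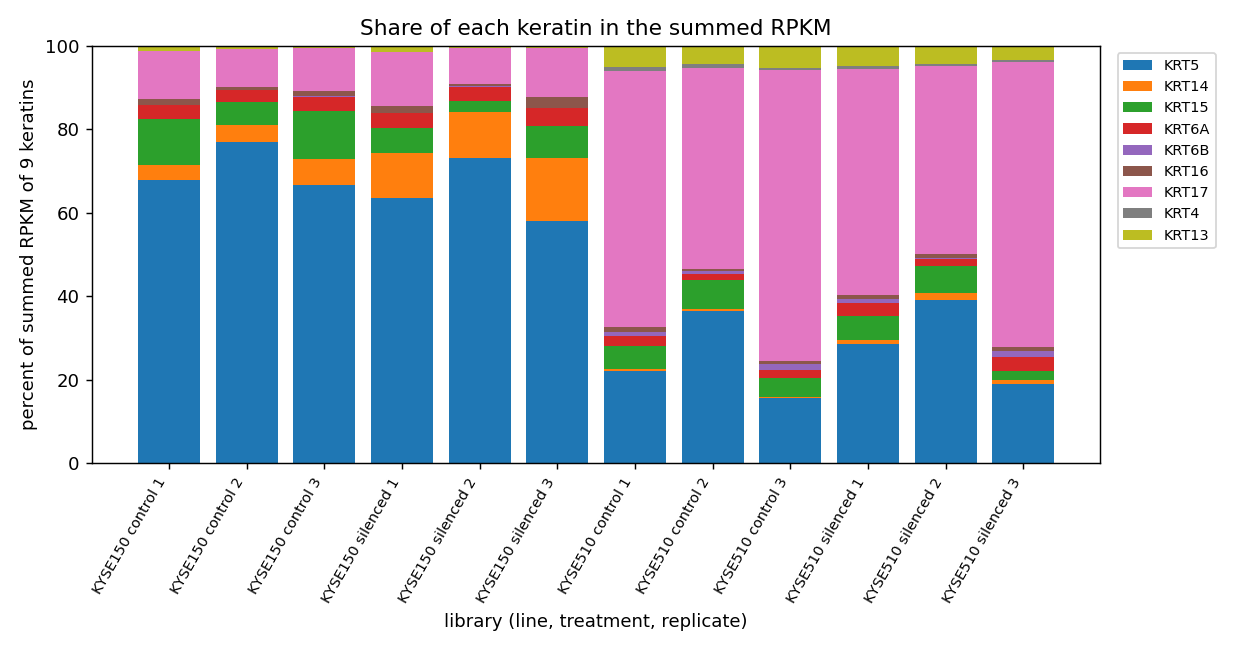
Share of each of 9 keratins in their summed RPKM (percent), by library. KRT5 makes up 66.8% to 76.9% of the sum in KYSE150 controls, and KRT17 makes up 48.2% to 69.7% in KYSE510 controls.

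With HCP5 silenced, no keratin passed in the fit of group means. Once libraries were compared within their replicate numbers, the basal keratin KRT14 passed as higher in both lines. The wound-associated KRT6A, KRT16 and KRT17 and the basal KRT5 then passed as higher in KYSE150. In KYSE510, KRT5, KRT6A, KRT16 and KRT17 were also higher in all 3 pairs, without passing in that fit. No difference of changes between lines passed. In the fit of 4 group means, 0 of 9 keratins passed 0.05 in either line (limma, adjusted over 17823 genes), against 0.499% of all genes in KYSE150 (0.376% higher, 0.123% lower) and 0.0393% in KYSE510 (0.0224% higher, 0.0168% lower). Before adjustment, 1 of the 9 in KYSE150 and 2 in KYSE510 had a limma p under 0.05. The share of all genes at that unadjusted threshold was not counted, so these counts have no background to be read against. After adjustment, voom on recovered reads also called 0 of the 9 in each line. With the replicate number as a block, 5 of 9 passed in KYSE150, all higher (background 6.7%, with 5.04% higher and 1.66% lower), and 1 of 9 in KYSE510, also higher (background 0.112%, with 0.0842% higher and 0.0281% lower). The pairing was taken from these data and not from the labels. The block p-values make no allowance for that choice, so they can be too small. Deviations across genes correlated at 0.147 to 0.415 in same-numbered pairs and at -0.385 to 0.184 otherwise, ranges that overlap. KYSE150 control 2 correlated more with silenced library 1 (0.184) than with silenced library 2 (0.147). The block calls depend on this pairing, and values within pairs are given beside the group values. Leaving out 1 pair of either line brought the 5 block calls in KYSE150 to between 0 and 3, and the call in KYSE510 to between 0 and 1. In KYSE150, KRT16 and KRT17 lost the call in every such fit (limma adjusted p 0.0633 to 0.115 and 0.0504 to 0.114). KRT5 and KRT6A kept it only without KYSE510 pair 3 (limma adjusted p 0.0398 and 0.0367). KRT14 lost it only without KYSE150 pair 1 (limma adjusted p 0.0806).

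KRT14 had 28.5, 23.0 and 81.2 RPKM in KYSE150 controls 1, 2 and 3 and 126.6, 91.2 and 369 in silenced libraries 1, 2 and 3. Every silenced library lay above every control, and replicate 3 was the highest of both groups. The silenced library exceeded its control by 4.44, 3.97 and 4.54 times. On the log2 scale the change was 2.09 (limma: SE 0.51, adjusted p 0.0964), and with the replicate block it had an SE of 0.14 and a limma adjusted p of 0.00793, which changes the call. In the fit of group means, leaving out 1 library moved the value between 1.5 and 2.64. The highest value came without KYSE150 control replicate 3, the highest control, and only that fit passed (limma adjusted p 0.0246). In the block fit, leaving out pair 1, 2 or 3 of KYSE150 gave limma adjusted p-values of 0.0806, 0.0341 and 0.0415, and log2 fold changes of 2.05 to 2.15 (chosen after the data were seen).

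In KYSE510, KRT14 had 6.78, 4.87 and 5.13 RPKM in controls, against 14.5, 16.8 and 19.8 in silenced libraries. Again every silenced library lay above every control, by 2.14, 3.44 and 3.86 times within pairs. This was a log2 fold change of 1.53 (limma: SE 0.51, adjusted p 0.560), and the replicate block gave an SE of 0.14 and a limma adjusted p of 0.0395, which changes the call. That call held without pair 1 of KYSE510 (limma adjusted p 0.0237) and was lost without pair 2 (0.211) or pair 3 (0.1996). It was also lost when pair 1, 2 or 3 of KYSE150 was left out (0.118, 0.0710 and 0.0920). The change did not differ detectably between lines, with a difference of -0.56 for KYSE510 minus KYSE150 (limma: SE 0.72, adjusted p 0.721, or 0.157 within replicate blocks).

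KRT14 took 3.64% to 6.20% of the summed RPKM of the 9 keratins in KYSE150 controls and 10.8% to 15.05% in silenced libraries. In KYSE510 its share was 0.3875% to 0.6855% in controls and 0.915% to 1.805% in silenced libraries. KRT16 is the gene whose coding windows most often match those of KRT14. The ratio of KRT14 to KRT16 was higher in the silenced library of all 6 pairs, from 2.65 to 6.67 in KYSE150 pair 1 and from 0.573 to 1.04 in KYSE510 pair 1. KRT14 had the highest pair ratio of the 9 genes in every pair. Its share, and its ratio to any of the others, therefore had to rise within pairs. How reads were divided between KRT14 and KRT16 was not tested.

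KRT5, which pairs with KRT14 in basal cells, had 531, 416 and 875 RPKM in KYSE150 controls, against 746, 607 and 1423 in silenced libraries. The groups overlapped, since control replicate 3 lay above silenced replicates 1 and 2. Within pairs the silenced library was higher by 1.41, 1.46 and 1.63 times. The log2 fold change was 0.58 (limma: SE 0.31, adjusted p 0.337), and the replicate block gave 0.0347. In KYSE510, KRT5 had 263, 258 and 205 RPKM in controls, against 392, 362 and 412 in silenced libraries, with no overlap and pair ratios of 1.49, 1.40 and 2.01. The log2 fold change there was 0.69 (limma: SE 0.31, adjusted p 0.777, or 0.0803 within replicate blocks), so it passed in neither fit.

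KRT5 exceeded KRT14 by 3.86 to 6.66 times in silenced KYSE150 libraries and by 20.8 to 27.0 times in silenced KYSE510 libraries. Both ranges lay below those of the controls, 10.8 to 18.6 and 38.8 to 53.0. The 2 chains of the basal pair thus stood nearer to each other in every silenced library than in any control of its line. KRT15 did not share this: it had 70.5, 22.75 and 189 RPKM in silenced KYSE150 libraries and 80.2, 60.45 and 46.3 in silenced KYSE510 libraries. Each set overlapped its controls, and the silenced library was higher in 1 of 3 pairs of KYSE150 and 2 of 3 of KYSE510 (log2 fold changes -0.11 and 0.06, limma: SE 0.69 each, adjusted p 0.964 and 1).

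**Figure D4:**
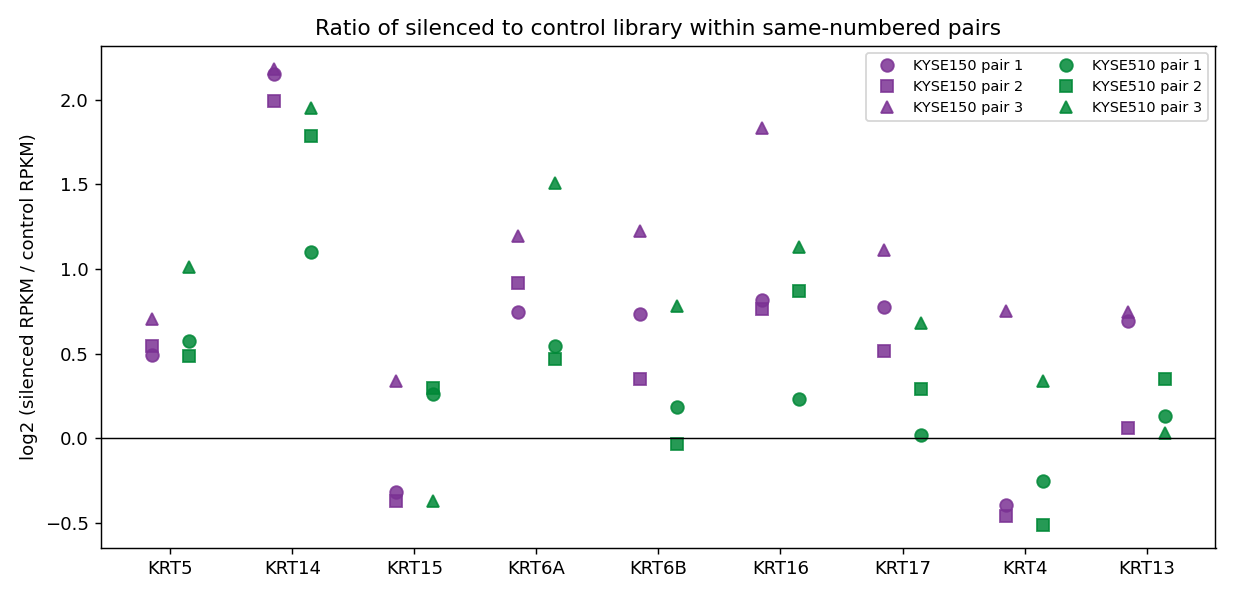
Log2 ratio of silenced to control RPKM within each same-numbered pair (symbols), by gene and line. KRT14 has the highest ratio in each of the 6 pairs, 3.97 to 4.54 times in KYSE150, and KRT4 and KRT15 lie on both sides of 0.

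KRT6A, a wound-associated type II chain, had 25.6, 15.3 and 44.7 RPKM in KYSE150 controls, against 43.0, 28.9 and 102.2 in silenced libraries. Replicate 3 was the highest of both groups and replicate 2 the lowest, and the groups overlapped. Pair ratios were 1.68, 1.885 and 2.29, and the log2 fold change was 0.94 (limma: SE 0.65, adjusted p 0.456, or 0.0442 within replicate blocks). In KYSE510, KRT6A had 28.1, 10.2 and 25.8 RPKM in controls, against 41.1, 14.1 and 73.5 in silenced libraries, with pair ratios of 1.46, 1.38 and 2.85. Silencing gave a log2 fold change of 0.83 (limma: SE 0.65, adjusted p 0.941, or 0.180 within replicate blocks). Leaving out 1 library moved the value for KRT6A between 0.43 and 1.33 in KYSE150 and between 0.30 and 1.47 in KYSE510.

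KRT16, the type I chain usually found with KRT6A, had 10.8, 3.11 and 18.2 RPKM in KYSE150 controls, against 19.0, 5.27 and 64.8 in silenced libraries. It followed the same order of replicates, and the groups overlapped. Pair ratios were 1.76, 1.695 and 3.56, with a log2 fold change of 1.09 (limma: SE 0.82, adjusted p 0.493, or 0.0479 within replicate blocks). Leaving out 1 library moved the log2 fold change between 0.22 (without KYSE150 silenced replicate 3) and 1.97 (without silenced replicate 2). In KYSE510 it had 11.8, 4.36 and 10.3 RPKM in controls, against 13.9, 7.98 and 22.4 in silenced libraries (pair ratios 1.18, 1.83 and 2.19; log2 fold change 0.71, limma: SE 0.82, adjusted p 0.953, or 0.289 within replicate blocks).

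KRT17 had 89.2, 49.9 and 132.8 RPKM in KYSE150 controls, against 152, 71.2 and 287 in silenced libraries. The groups overlapped, and pair ratios were 1.71, 1.43 and 2.165. On the log2 scale the change was 0.80 (limma: SE 0.59, adjusted p 0.488, or 0.0356 within replicate blocks). In KYSE510, where it was the most abundant keratin of the 9, KRT17 had 736, 343 and 923 RPKM in controls, against 747, 419.5 and 1480 in silenced libraries. Pair ratios were 1.015, 1.22 and 1.60, and the log2 fold change was 0.33 (limma: SE 0.59, adjusted p 0.975, or 0.401 within replicate blocks).

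KRT6B had 0.8003, 0.544 and 2.16 RPKM in silenced KYSE150 libraries and 13.4, 4.19 and 29.9 in silenced KYSE510 libraries. It was higher in 3 of 3 pairs of KYSE150 and in 2 of 3 of KYSE510 (log2 fold changes 0.49 and 0.30, limma: SE 0.64 each, adjusted p 0.719 and 0.978, and 0.127 and 0.519 with the block). Pair ratios were 1.66, 1.27 and 2.33 in KYSE150 and 1.14, 0.975 and 1.72 in KYSE510. Its KYSE150 levels were read from 20 to 133 reads each. They lay near the added 0.5 RPKM, which lowers the log2 fold change there. KRT6B passed in neither line.

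The suprabasal pair passed neither with group means nor with the block, while voom on recovered reads with the block called KRT13 in KYSE150 (limma adjusted p 0.00515). KRT13 had 16.4, 3.82 and 12.35 RPKM in silenced KYSE150 libraries and 67.3, 40.1 and 71.2 in silenced KYSE510 libraries. The silenced library was the higher in all 6 pairs, by 1.02 to 1.68 times, and the log2 fold changes were 0.48 and 0.17 (limma: SE 0.51 each, adjusted p 0.645 and 0.990, and 0.0716 and 0.615 with the block). KRT4 had 0.0804, 0.0428 and 0.0672 RPKM in silenced KYSE150 libraries and 7.98, 3.99 and 10.3 in silenced KYSE510 libraries. It was higher in 1 of 3 pairs of each line, with log2 fold changes of -0.01 and -0.13 (limma: SE 0.27 each, adjusted p 1 and 0.978).

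Counted by pairs, KRT5, KRT6A, KRT13, KRT14, KRT16 and KRT17 were higher in the silenced library of all 6 pairs, 6 of 9 genes against 6.7% of all genes tested. In KYSE150 alone 7 of 9 were higher in all 3 pairs (background 37.4%), and in KYSE510 6 of 9 (background 16%). Without overlap of libraries, 1 of 9 was higher in KYSE150 (KRT14; background 13.7%) and 2 of 9 in KYSE510 (KRT5 and KRT14; background 5.22%). For lower values without overlap the count was 0 of 9 in each line, against 5.47% of all genes in KYSE150 and 6.87% in KYSE510. The median log2 fold change of the 9 keratins was 0.58 in KYSE150, against 0.08 over all genes, and 0.33 in KYSE510, against -0.02. The difference of changes between lines passed for 0 of 9 (background 0%), with 0 at an unadjusted p under 0.05 and limma adjusted p-values of 0.721 to 0.962. With the block those were 0.157 to 0.819.

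The 9 genes also varied strongly between replicates of the same group, and largely together. The SD within groups was 0.37 (KRT4) to 1.18 (KRT16) on the log2 scale, against a median of 0.17 over all genes tested, and each of the 9 exceeded at least 91.2% of genes. The SD of the differences within pairs was 0.21 (KRT5) to 0.54 (KRT16), against a median of 0.16. Together the 9 genes took 0.333%, 0.224% and 0.554% of reads in KYSE150 controls 1, 2 and 3 and 0.460%, 0.327% and 0.953% in silenced libraries. In KYSE510 they took 0.384%, 0.2501% and 0.403% in controls, against 0.459%, 0.329% and 0.648% in silenced libraries. Replicate 2 was the lowest and replicate 3 the highest in all 4 groups.

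Deviations from the group means correlated above 0 in all 36 pairs of the 9 genes, with a median Pearson r of 0.695 over 12 libraries. These points share libraries and depth, and r is given as a description. The share of positive r over pairs of other genes was not counted, so the 36 have no background to be read against. The 4 wound-associated genes correlated at 0.72 to 0.96 with each other, most closely KRT6A with KRT17 (0.96). KRT5 and KRT14 correlated at 0.96, and KRT5 with KRT15 at 0.87. KRT4 correlated least with the basal genes (0.06 with KRT5, 0.07 with KRT14, 0.04 with KRT15) and most with KRT6B (0.84). In KYSE150, KRT4 lay near the floor on 3 to 7 reads, with a log2 SD of 0.085 in controls and 0.049 in silenced libraries. In KYSE510 these SDs were 0.354 and 0.652, so the correlations of KRT4 rest mainly on the KYSE510 libraries. By sequence KRT6A and KRT6B are the nearest pair, and they correlated at 0.94, while KRT14 and KRT16 correlated at 0.85.

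**Figure D5:**
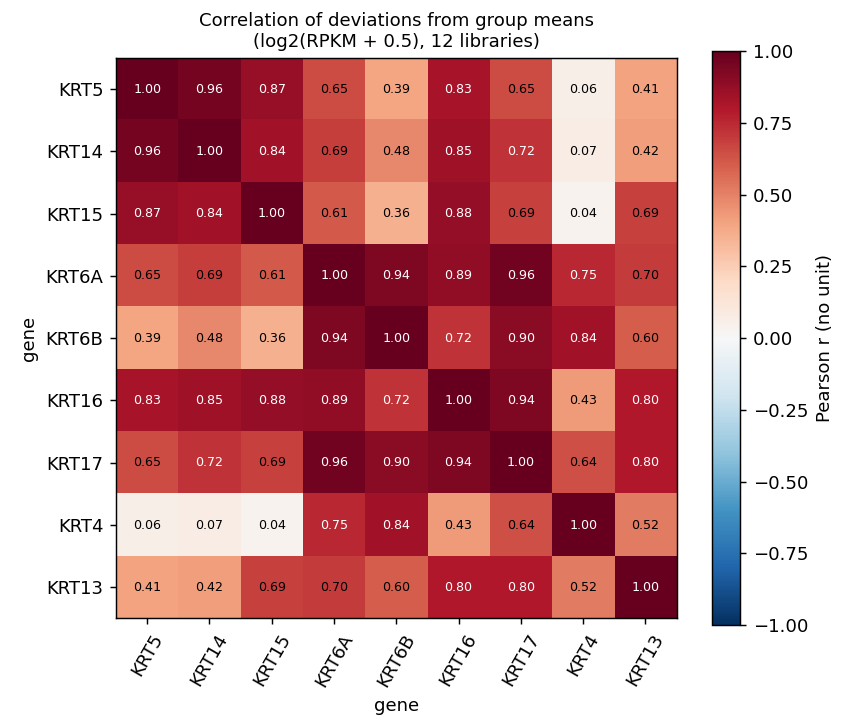
Pearson r between keratins of their deviations from the group mean, on log2(RPKM + 0.5) over 12 libraries. KRT5 with KRT14 and KRT6A with KRT17 stand at 0.96, and KRT4 with KRT5, KRT14 and KRT15 at 0.04 to 0.07. Values for KRT4 rest mainly on KYSE510, since KRT4 lay near the floor in KYSE150.

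Genes outside the list with the most similar pattern were sought by Pearson r after subtracting the mean of each line, over 12 libraries and 14019 genes with a mean of at least 1 RPKM. KRT14 was nearest to AHNAK (0.97) and ANXA8 (0.96), and KRT5 to AHNAK (0.92) and DKK3 (0.92). KRT6A was nearest to WNT7A (0.97) and PRSS23 (0.97), and KRT6B to NET1 (0.95) and LAD1 (0.93). KRT16 was nearest to RP11-993B23.3 (0.94) and FGFBP1 (0.94), and KRT17 to RP11-96O20.4 (0.96) and ALS2CL (0.96). KRT13 was nearest to TNFAIP3 (0.92) and PGBD2 (0.91), KRT4 to RPS6KA2 and GPAT3 (0.96 each), and KRT15 to CWF19L1 (0.90) and FAM174A (0.88). These are the highest of many correlations and are given as a description, and those of KRT4 rest mainly on the KYSE510 libraries.

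Of 22 other keratins, 11 passed the filter on low values. The most abundant were KRT8 and KRT18 of simple epithelium, KRT7 of glandular epithelium, KRT80, and KRT10, a type I chain of differentiating epidermis. Between control lines 4 of the 11 were higher and 4 lower in KYSE510, a share near the 62% of all genes called. KRT7 had 5.06 ± 1.19 RPKM in KYSE150 and 624 ± 141 in KYSE510 controls (SD, n = 3), a log2 fold change of 6.81 (limma: SE 0.22, adjusted p 4.9e-10). KRT8 (866.8 ± 92.9 against 534 ± 51.9 RPKM; -0.70, SE 0.14) and KRT18 (557.9 ± 90.6 against 343 ± 21.7; -0.69, SE 0.12) were lower in KYSE510, with limma adjusted p-values of 0.000903 and 0.000444. For silencing, 0 of 11 passed in either line, and with the block 1 of 11 did, KRT10 in KYSE150 (5.04% of all genes were higher there). KRT10 had 9.75 ± 4.08 RPKM in controls and 19.1 ± 3.95 in silenced libraries (SD, n = 3), with a log2 fold change of 0.995 and limma adjusted p-values of 0.155 and, within replicate blocks, 0.0393.

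A list of 20 genes was taken as filament partners, and all were tested. Most belong to desmosomes, hemidesmosomes or other anchors of keratin filaments, but some, FLG and SFN among them, are not junction genes. For silencing, 0 of 20 passed in either line. With the replicate block 7 of 20 were higher in KYSE150, against 5.04% of all genes: PKP1, PKP3, JUP, DSG3, DSC3, PERP and TRIM29, with log2 fold changes of 0.31 (JUP and DSC3) to 0.56 (PKP1). The list of 10 squamous markers shares several of these genes, and with the block 6 of its 10 were higher in KYSE150 (5.04% of all genes) and 0 in KYSE510 (0.0842%), with summed levels of 642 to 794 RPKM in KYSE150 controls and 630 to 939 in silenced libraries. The part of squamous cell content in the keratin values was not tested, nor that of the greater depth of the silenced KYSE150 libraries. With the block 0 of 20 passed in KYSE510. The median was 0.18 in KYSE150 and 0.03 in KYSE510, against 0.08 and -0.02 over all genes. Between control lines, 10 were higher and 6 lower in KYSE510, against 28.3% and 33.7% of all genes, led by EPPK1 (2.08), DSC2 (1.57) and PPL (1.26), and by PKP1 (-3.90), FLG (-3.66) and PKP2 (-1.88).

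Of 24 regulators of keratin genes, 23 were tested, and 0 passed for silencing in either line. With the block 3 of 23 were higher in KYSE150 (5.04% of all genes) and 0 in KYSE510 (0.0842%). These were TP63, the master transcription factor of squamous basal cells (log2 fold change 0.37, limma adjusted p 0.0836, or 0.0254 within replicate blocks), TFAP2C (0.46; 0.0960 and 0.0405) and JUNB (0.72; 0.0941 and 0.0275). The median was 0.13 in KYSE150 and -0.03 in KYSE510, near the 0.08 and -0.02 of all genes. Between control lines, 14 were higher and 4 lower in KYSE510, against 28.3% and 33.7% of all genes, led by SOX2 (3.82), EHF (3.29) and ELF3 (3.20), and by FOSL1 (-2.39), PAX9 (-0.79) and BARX2 (-0.71).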

How the data were processed

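RPKM values were deposited by the authors, with 12 sample columns in a table whose position columns are those of featureCounts, per the file headers. HISAT2, DESeq and the build GRCh38 are named, without a role, per the submitters' processing notes; strand use, filters and annotation release are not given in the sources used here. RPKM times exon length was a whole multiple (within 0.01) of a single step for 100% of values above 0, so reads were recovered.

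Values were tested as log2(RPKM + 0.5) for genes with at least 0.5 RPKM in at least 3 libraries (17823, all 9 keratins among them), with limma 3.58.1 in R 4.3.3: 4 group means, eBayes with trend, 8 residual degrees of freedom, two-sided p-values adjusted by Benjamini-Hochberg, threshold 0.05. A filter met through 1 line alone admits genes that differ between lines, as for KRT4. The procedure was also run on simulated counts, with a single dispersion for all genes and no effect of replicate number. That run does not cover the spread between keratin replicates or the pairing behind the block.

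Deviations from group means correlated at 0.147 to 0.415 in all 6 same-numbered pairs of control and silenced libraries, and at -0.385 to 0.184 otherwise, so numbers from the titles were taken to pair libraries (replicate block, 4 residual degrees of freedom). The labels do not state what a number marks. Control lines were compared without the block. The members, lists and tests were chosen with earlier results of these data known. All 9 keratins are named; the 5 most abundant other keratins, list members past the threshold for silencing, the 3 largest differences between control lines in each direction, and the 2 genes most alike in pattern are named by rule. List members that passed only with the block were named after their values were seen. Coding sequences came from GENCODE release 29 (GRCh38), aligned with Biopython 1.88. The stretch of KRT4 is not reported here.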

Additional observations from a re-analysis of the deposited data

How the results depend on the processing

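The 6 calls between control lines held under every alternative run: added values of 0.1 and 1 RPKM, no filter, a filter of 1 RPKM, median centring, quantile normalization, eBayes without trend, only the libraries compared, voom on recovered reads, and leaving out each library. The calls for silencing did not. Against 0 in both lines, the replicate block gave 5 in KYSE150 and 1 in KYSE510, and voom on recovered reads with the block gave 6 and 3, adding KRT13 in KYSE150 and KRT5 and KRT6A in KYSE510. Without the block, leaving out each library gave 0 to 1 in KYSE150, the 1 being KRT14 without control replicate 3, and 0 in KYSE510. With the block and without 1 same-numbered pair (an alternative chosen after the data were seen), KYSE150 kept 0 to 3 calls (0 without its pair 1, 1 without its pair 2 or 3 or KYSE510 pair 1 or 2, 3 without KYSE510 pair 3) and KYSE510 kept 0 to 1, the 1 being without its pair 1. The cause of these losses was not tested. Shares of all genes called by voom with the block, or without 1 pair, are not given here. Those keratin counts therefore have no background to be read against.

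Directions turned only for values that passed no test. In the fit without the block, leaving out each library gave log2 fold changes for silencing in KYSE150 of -0.046 to 0.036 for KRT4 and -0.86 to 0.66 for KRT15. In KYSE510 these were -0.39 to 0.24 for KRT4, -0.33 to 1.014 for KRT6B, -0.18 to 0.43 for KRT13, -0.13 to 0.26 for KRT15 and -0.14 to 0.77 for KRT17. The difference of changes between lines was -0.38 to 0.25 for KRT4, -0.19 to 0.47 for KRT5, -0.64 to 0.53 for KRT6A, -0.83 to 0.52 for KRT6B, -0.90 to 0.087 for KRT13, -1.11 to 0.027 for KRT14, -0.60 to 0.92 for KRT15, -1.26 to 0.49 for KRT16 and -0.98 to 0.021 for KRT17. Between control lines, it was -0.78 to 0.049 for KRT6A, -0.98 to 0.19 for KRT15 and -0.75 to 0.44 for KRT16. Median centring gave a difference between lines of 0.039 for KRT4 and 0.044 for KRT6A, and voom with the block 0.0042 for KRT4. With the block and without 1 pair, turned values were 0.015 and 0.0051 for KRT4 and 0.0099 for KRT15 in KYSE150, and 0.041 for KRT4 and -0.036 and -0.053 for KRT15 in KYSE510. For the difference they were 0.052 (KRT4), -0.050 (KRT5), 0.011, 0.032 and 0.078 (KRT6A) and 0.014 (KRT6B).

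Leaving out 1 library also moved the KYSE150 changes of KRT5 between 0.22 and 0.88 and of KRT17 between 0.31 and 1.31. KRT14 kept its direction for silencing under every alternative run, at 1.5 to 2.64 in KYSE150 and 1.37 to 1.77 in KYSE510. Median centring moved the median change of all genes in KYSE150 from 0.08 to -0.05. KRT4 in KYSE150 rests on 3 to 7 reads, so its changes there were not measurable at this depth.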
